A study of Capra hircus with 6 samples.

Results

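The genes described are the 3 peptide precursors and the 3 receptors of kisspeptin, neurokinin B and dynorphin signalling in the goat hypothalamus. They were taken by symbol from the table of read counts, namely KISS1, TAC3, PDYN, KISS1R, TACR3 and OPRK1, which are 6 of its 28907 rows. The libraries came from the medio-basal hypothalamus, the block at the base of the brain that holds the arcuate nucleus and the median eminence, of adult Alpine goats (Capra hircus). The 5 goats of the January group were in the follicular phase, when ovarian follicles grow towards ovulation, and the 8 goats of the mid-May group were in anestrus, when ovarian cycles have stopped for the season. Each group gave 2 libraries, and each library is a random equimolar mix of RNA from goats of that group. How many goats entered a mix, and whether a goat entered both mixes of its group, are not stated in the labels. The spread between pools is therefore not the spread between goats. A further group of 5 goats, taken in January in the luteal phase, was not analysed here.

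Many arcuate neurons make all 3 peptides and are called KNDy neurons after kisspeptin, neurokinin B and dynorphin. Kisspeptin drives the secretion of gonadotropin-releasing hormone (GnRH), neurokinin B excites the KNDy neurons themselves and helps to start each pulse, and dynorphin inhibits them and helps to end it. In goats, bursts of electrical activity recorded beside these neurons accompany pulses of luteinising hormone. In ewes, another seasonal breeder, arcuate KISS1 is known to be higher in the breeding season than in anestrus. The comparison asks how RNA for this system differs between the follicular phase and anestrus. Season and ovarian state differ together in it and cannot be told apart.

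None of the 6 genes was called changed, which here means an adjusted p under 0.05 in the quasi-likelihood test of edgeR over 16756 genes, and 0.203% of all genes were. PDYN and OPRK1, the dynorphin precursor and the receptor dynorphin acts on, were each about 1.4-fold higher in the follicular pools, at 1.39-fold and 1.42-fold. KISS1 was at 1.48-fold with a wide interval, while TAC3 and TACR3, the neurokinin B precursor and its receptor, were at 1.00-fold and 1.07-fold. KISS1R was too sparsely read for any but a large change to be detectable. Levels are CPM, the read count scaled by the library total after TMM correction for library composition, and log2 fold changes are follicular minus anestrus, each with its standard error. At an unadjusted p under 0.05 there were 2 of the 6, PDYN and OPRK1, both higher in the follicular phase, beside 8.55% of all genes in either direction and 4.26% higher in the follicular phase, and the DESeq2 Wald test and limma-voom each called 0.

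**Figure D1:**
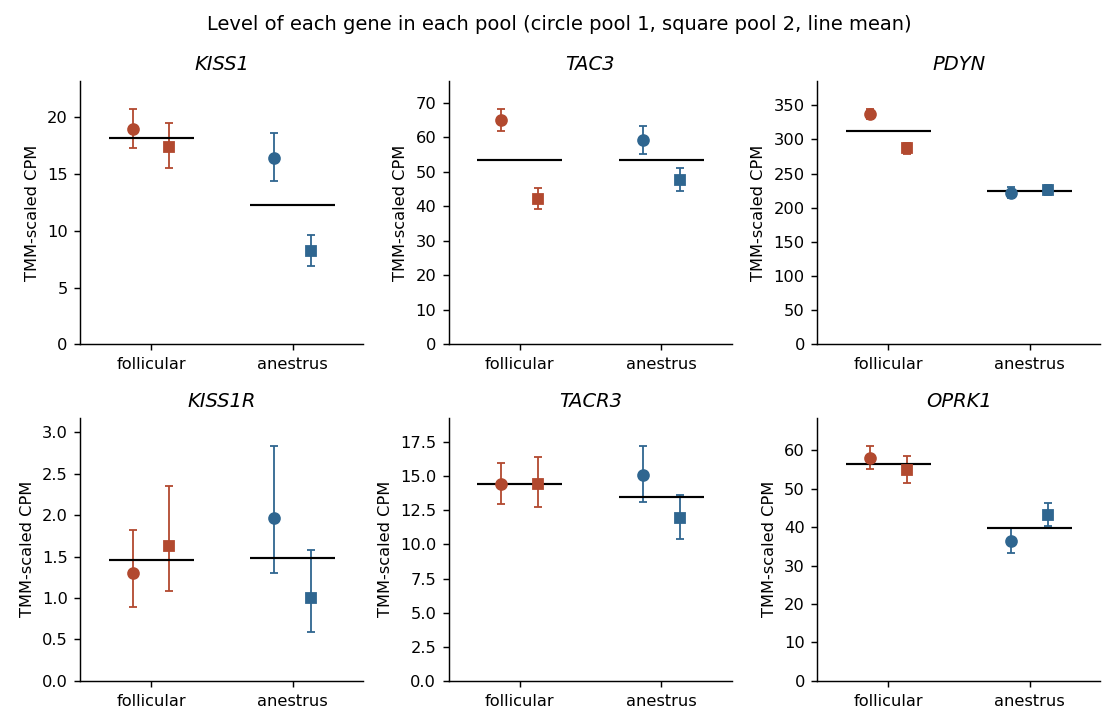
TMM-scaled CPM (y axis, linear, from 0) of each gene in the 2 follicular and the 2 anestrus pools, as circles for pool 1 and squares for pool 2, with 95% exact Poisson intervals of the counts as bars and the group mean as a line. The follicular pools of PDYN, OPRK1 and KISS1 lie above both anestrus pools, and those of TAC3, KISS1R and TACR3 overlap with them. For KISS1 anestrus pool 1 lies close to the follicular pools and anestrus pool 2 stands low.

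Library totals ran from 14553821 to 25292678 counts. The pools of the follicular group correlated across genes at r = 0.9821 on log2 CPM and those of anestrus at r = 0.9714, with 0.9672 to 0.9773 between groups. Genes expressed in the arcuate nucleus were read in all 4 pools. GHRH, the growth hormone-releasing hormone precursor, had 23.2 and 19.5 CPM in the follicular pools against 39.4 and 29.1 CPM in the anestrus pools. NPY, a feeding peptide, had 15.7 and 17.5 CPM in the follicular pools against 24.9 and 13.3 CPM in the anestrus pools. AGRP, a peptide gene also expressed there, had 7.79 and 2.38 CPM in the follicular pools against 7.01 and 3.11 CPM in the anestrus pools. POMC, another, had 170 and 37.7 CPM in the follicular pools against 259 and 91.9 CPM in the anestrus pools. Within each group AGRP and POMC thus differed more between pools than GHRH and NPY did. These genes were chosen after their values were seen. All 6 genes passed the filter on low counts. Of the 6, 5 had a positive log2 fold change, and their median was 0.29, beside 49.9% positive and a median of -0.00067 over all genes tested. The median of the 6 lay in a gap between TACR3, at 0.10, and PDYN, at 0.48. It was 0.088 without anestrus pool 2 and 0.017 when pools were scaled on neuron markers. For 3 of the 6, namely PDYN, OPRK1 and KISS1, the follicular pools lay wholly above the anestrus pools, and for 0 of the 6 wholly below. Over all genes these shares were 17.6% and 20.7%. None of the 6 shared bases with another gene in the RefSeq table of the ARS1.2 assembly, apart from a transfer RNA gene within OPRK1 that had 0 counts in all 4 libraries. Exon lengths were not used here, so levels are compared between pools and not between genes.

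KISS1 encodes the precursor of kisspeptin. It had 482 and 300 counts in follicular pools 1 and 2, against 234 and 148 counts in anestrus pools 1 and 2. These came to 19.0 and 17.4 CPM in the follicular pools and to 16.4 and 8.21 CPM in the anestrus pools. Anestrus pool 1 thus lay close to the follicular pools. Anestrus pool 2 stood apart below them, and the higher pool exceeded the lower 1.09-fold within the follicular phase and 2.00-fold within anestrus. Counting error does not cover that gap, since the 95% exact Poisson intervals were 14.4 to 18.6 CPM in anestrus pool 1 and 6.94 to 9.65 CPM in anestrus pool 2. The interval of anestrus pool 1 overlapped those of both follicular pools, at 17.3 to 20.7 and 15.5 to 19.5 CPM. These intervals cover counting error only, as do all others given for single pools.

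The log2 fold change of KISS1 was 0.57 ± 0.33, with a 95% interval from -0.17 to 1.31 and an adjusted p of 0.722 (edgeR). The interval runs from 0.888-fold to 2.48-fold, so a doubling in the follicular phase lies within it, as does no change. Which anestrus pool was kept decided the value. Without anestrus pool 1 the log2 fold change was 1.146 with an adjusted p of 0.0266 (edgeR), the single alternative of 15 in which any of the 6 genes passed, and without anestrus pool 2 it was 0.195. Leaving a pool out also removes the spread within its group, and the lone anestrus pool is then assumed to vary like the follicular ones.

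TAC3 encodes the precursor of neurokinin B. Its follicular pools had 64.9 and 42.1 CPM, from 1649 and 725 counts, and its anestrus pools 59.1 and 47.6 CPM, from 844 and 858 counts. The anestrus pools lay between the follicular pools, so the groups overlapped completely. The means were 53.5 ± 16.1 CPM over the follicular pools and 53.4 ± 8.15 CPM over the anestrus pools (SD, n = 2 pools each). The log2 fold change was 0.01 ± 0.23, with a 95% interval from -0.51 to 0.52 (adjusted p = 0.997, edgeR). A change beyond 1.44-fold upward or below 0.702-fold lies outside that interval. The sign depended on the pool left out, with -0.32 without follicular pool 1 and 0.28 without follicular pool 2.

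PDYN encodes prodynorphin, from which dynorphins are cut. Its mean CPM, which is not corrected for gene length, was above that of 96.5% of the genes tested. Its follicular pools had 337 and 287 CPM, from 8571 and 4946 counts, and its anestrus pools 222 and 226 CPM, from 3171 and 4066 counts. Both follicular pools were above both anestrus pools, and the anestrus pools lay within 1.02-fold of each other. Means were 312 ± 35.3 CPM over the follicular pools and 224 ± 2.44 CPM over the anestrus pools (SD, n = 2 pools each). The log2 fold change was 0.48 ± 0.16, with a 95% interval from 0.13 to 0.83 that takes no account of the number of genes tested. The unadjusted p was 0.0124 and the adjusted p 0.393 (edgeR), and 3.13% of all genes had a smaller p. It stayed positive in all 15 alternatives, between 0.20 and 0.59, and passed in 0 of them. With both follicular pools above both anestrus pools, leaving 1 pool out could hardly turn its sign.

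OPRK1 encodes the kappa opioid receptor, the receptor that dynorphins prefer and that couples to inhibitory G proteins. It had 58.0 and 54.9 CPM in the follicular pools, from 1476 and 946 counts, against 36.4 and 43.2 CPM in the anestrus pools, from 520 and 779 counts. Both follicular pools were above both anestrus pools, as for PDYN. The means were 56.5 ± 2.21 CPM over the follicular pools and 39.8 ± 4.80 CPM over the anestrus pools (SD, n = 2 pools each). The log2 fold change was 0.50 ± 0.19, with a 95% interval from 0.09 to 0.92, an unadjusted p of 0.0223 and an adjusted p of 0.465 (edgeR). Like PDYN it was positive in all 15 alternatives, between 0.21 and 0.68, and passed in 0. As for PDYN, its sign could hardly turn with 1 pool left out.

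TACR3 encodes the neurokinin B receptor, a receptor coupled to Gq that KNDy neurons also carry. It had 14.4 and 14.5 CPM in the follicular pools, from 366 and 249 counts, against 15.1 and 11.9 CPM in the anestrus pools, from 215 and 215 counts. The follicular pools lay between the anestrus pools. The log2 fold change was 0.10 ± 0.27, with a 95% interval from -0.50 to 0.70 (adjusted p = 0.965, edgeR).

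KISS1R encodes the kisspeptin receptor, through which kisspeptin acts on GnRH neurons. It was read 33 and 28 times in the follicular pools and 28 and 18 times in the anestrus pools. That is 1.30 and 1.63 CPM in the follicular pools against 1.96 and 0.999 CPM in the anestrus pools, so the groups overlapped. The Poisson interval of anestrus pool 2 alone ran from 0.592 to 1.58 CPM. The log2 fold change was -0.01 ± 0.54, with a 95% interval from -1.20 to 1.18 (adjusted p = 0.998, edgeR), which leaves room for a change of 2.27-fold upward or to 0.434-fold. GNRH1, the precursor of GnRH, was as sparse, with 0.669 and 1.80 CPM in the follicular pools against 0.841 and 0.999 CPM in the anestrus pools (log2 fold change 0.38 ± 0.62).

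**Figure D2:**
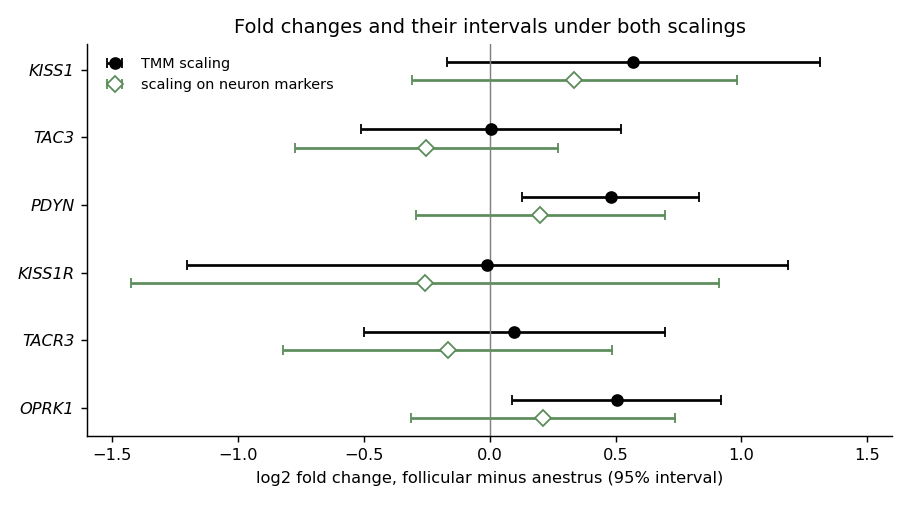
Log2 fold change of each gene (x axis, follicular minus anestrus) with its 95% interval, under TMM scaling (filled circles) and with pools scaled on neuron markers (open diamonds). Under TMM the intervals of PDYN (0.13 to 0.83) and OPRK1 (0.09 to 0.92) lie above 0, and under neuron marker scaling all 6 intervals include 0.

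The summed level of the neuron markers differed between the 4 pools. All 14 measured neuron markers had a positive log2 fold change, from 0.006 to 0.62 with a median of 0.31. At an unadjusted p under 0.05 there were 3, and 0 were called by edgeR, DESeq2 or limma-voom. For 7 of the 14 the follicular pools lay wholly above the anestrus pools, beside 17.6% of all genes. Without anestrus pool 2 the median of the neuron markers was 0.20. Their summed level was 7194 and 7746 CPM in the follicular pools against 6787 and 5816 CPM in the anestrus pools. Anestrus pool 2 was lowest in this sum, though not for every neuron marker, and it was lowest for KISS1, KISS1R and TACR3. PDYN and OPRK1 were lowest in anestrus pool 1, and TAC3 in follicular pool 2. Astrocyte markers had a median of 0.57 (10 of 10 positive, summed 12402 and 13257 CPM in the follicular pools against 8013 and 7986 CPM in the anestrus pools) and oligodendrocyte markers of 0.76 (11 of 11 positive, summed 3578 and 4811 CPM in the follicular pools against 3037 and 1967 CPM in the anestrus pools). Of the 10 astrocyte markers 6 had an unadjusted p under 0.05, edgeR and limma-voom called 1 and DESeq2 called 2. GFAP, the astrocyte filament protein, was the gene edgeR called, and without follicular pool 1 the list had 0 calls. Of the 11 oligodendrocyte markers 9 had an unadjusted p under 0.05, all higher in the follicular phase, and edgeR, limma-voom and DESeq2 called 0, 0 and 2. Their median was 0.49 without follicular pool 2. Without anestrus pool 1 or 2, edgeR called more markers of both lists, as it called more genes over the whole table. None of the markers of these 3 lists that the table holds was at 0 in all pools. Microglia markers had a median of 0.24 (11 tested), endothelial and mural markers of 0.10 (9 tested) and tanycyte and ependyma markers of 0.02 (9 tested), with 0 called by edgeR, DESeq2 or limma-voom and 1, 0 and 0 at an unadjusted p under 0.05. Pituitary and pars tuberalis markers had a median of -0.97 (9 tested, 2, TSHB and CGA, subunits of thyrotropin, called lower in the follicular phase and 0 called higher), with a summed level of 5526 and 4515 CPM in the follicular pools against 14726 and 11521 CPM in the anestrus pools. Calls in this list were fewer without follicular pool 1 and more with another pool left out, as they were over all genes. The part of these cell types in the values of the 6 genes was not tested. In a bulk sample, fewer cells of a type and less RNA per cell cannot be told apart.

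When the pools were scaled on the neuron markers in place of the whole library, the median of all genes moved from -0.00067 to -0.28 on the log2 scale. Under that scaling PDYN had a log2 fold change of 0.20 with a 95% interval from -0.29 to 0.70, and OPRK1 of 0.21 with an interval from -0.31 to 0.74. KISS1 had 0.34, TAC3 -0.25, TACR3 -0.17 and KISS1R -0.26. Relative to the neuron markers, the differences of PDYN and OPRK1 were thus smaller than under TMM, and the values of TAC3 and TACR3 were negative. None of the 6 passed under that scaling (adjusted p from 0.630 to 0.849, edgeR).

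Ratios of counts between the genes of 1 pool do not depend on the library total. Because the genes differ in length, such a ratio is no ratio of molecules, but it can be compared between pools. The log2 ratio of PDYN to TAC3 was 2.38 and 2.77 in the follicular pools, against 1.91 and 2.24 in the anestrus pools. The log2 ratio of KISS1 to TAC3 was -1.77 and -1.27 in the follicular pools, against -1.85 and -2.53 in the anestrus pools. For both, the follicular pools were higher without overlap, by 0.50 for PDYN over TAC3 and by 0.67 for KISS1 over TAC3 in the mean. For KISS1 over TAC3 the gap between the closest pools of the groups, follicular pool 1 and anestrus pool 1, was small beside the distance between pools of 1 group.

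Over all 4 pools the log2 ratio of ligand to receptor RNA spanned the narrowest range for dynorphin. Within anestrus it varied most for dynorphin, with an SD of 0.16 against 0.017 for neurokinin B and 0.025 for kisspeptin (n = 2 pools). The log2 ratio of PDYN to OPRK1 was 2.54 and 2.39 in the follicular pools, against 2.61 and 2.38 in the anestrus pools, a difference of -0.03 in the mean. For neurokinin B, the log2 ratio of TAC3 to TACR3 was 2.17 and 1.54 in the follicular pools against 1.97 and 1.99 in the anestrus pools. For kisspeptin, the log2 ratio of KISS1 to KISS1R was 3.85 and 3.40 in the follicular pools against 3.04 and 3.005 in the anestrus pools, without overlap, but it rests on the few KISS1R reads. PDYN to KISS1 overlapped, at 4.15 and 4.04 in the follicular pools against 3.76 and 4.78 in the anestrus pools. Of the 6 ratios, 3 gave an exact permutation p of 0.333 (2-sided, adjusted p = 0.666), which is the smallest p that 2 pools against 2 allow, and the other 3 gave 1, so none can pass.

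**Figure D3:**
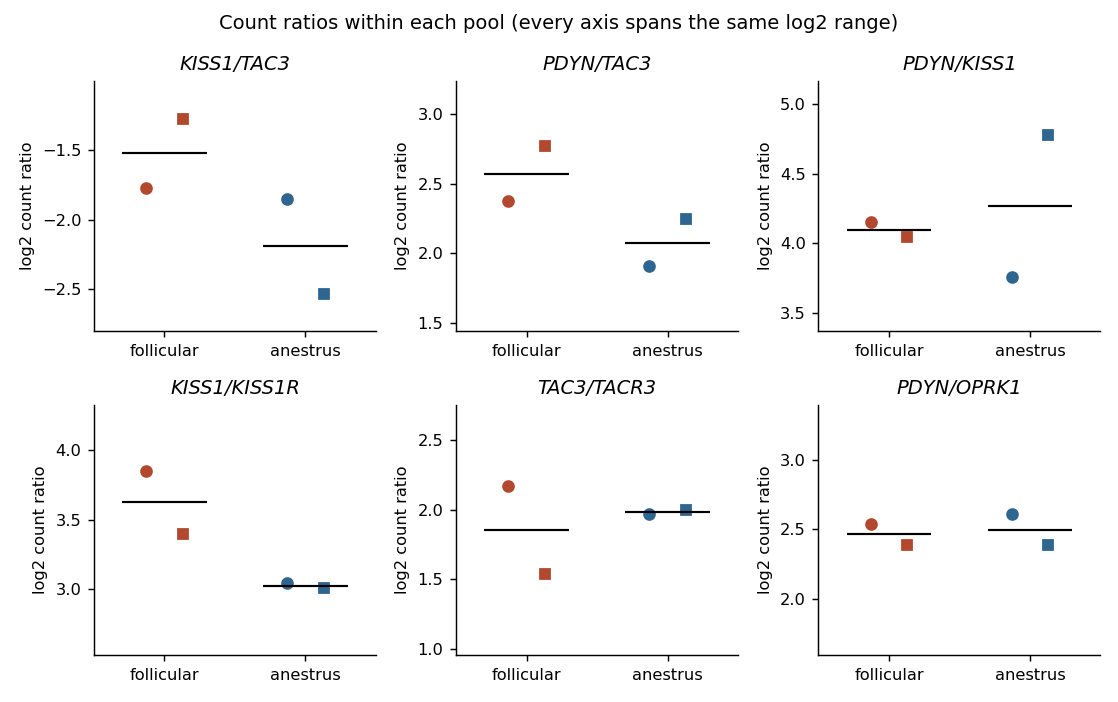
Log2 ratio of counts within each pool (y axis, the same span in every panel) for 6 pairs of genes, with circles for pool 1, squares for pool 2 and lines for group means. The groups do not overlap for KISS1/TAC3, PDYN/TAC3 and KISS1/KISS1R, and PDYN/OPRK1 stays between 2.38 and 2.61 in all 4 pools.

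Relatives of the 3 peptides were measured in the same pools, and none passed in edgeR, DESeq2 or limma-voom, or at an unadjusted p under 0.05 in edgeR. Of the other tachykinin genes 3 could be tested. TAC1, the precursor of substance P and neurokinin A, had 99.5 and 119 CPM in the follicular pools against 127 and 87.8 CPM in the anestrus pools, with a log2 fold change of 0.03 ± 0.20. TACR1, the substance P receptor, had 1.46 and 1.51 CPM in the follicular pools against 0.911 and 0.721 CPM in the anestrus pools (0.86 ± 0.54), and TACR2 had a log2 fold change of -0.18 ± 0.32. The 6 other opioid genes tested had a median of 0.16, with 0.068 when follicular pool 1 was left out, 0.47 when anestrus pool 1 was and -0.092 when anestrus pool 2 was. Among them PENK, the enkephalin precursor, had 77.2 and 57.4 CPM in the follicular pools against 70.3 and 47.3 CPM in the anestrus pools (0.20 ± 0.23), OPRL1, the nociceptin receptor, 0.46 ± 0.28, and OPRM1, the mu opioid receptor, 0.27 ± 0.39.

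Kisspeptin belongs to the RFamide peptides, named for the arginine and phenylalanine amide at the end of most of them. Of the 5 other RFamide genes tested, 4 had a positive log2 fold change, with a median of 0.55. That median was 0.22 without follicular pool 1, 0.17 without follicular pool 2, 0.29 with a filter on mean CPM and 0.26 under neuron marker scaling. NPVF, the precursor of gonadotropin-inhibitory RFamide-related peptides, had 9.67 and 15.6 CPM in the follicular pools against 8.34 and 8.88 CPM in the anestrus pools. NPFFR2, a receptor for neuropeptide FF, had 0.708 and 0.987 CPM in the follicular pools against 0.210 and 0.388 CPM in the anestrus pools (1.44 ± 0.70), and PRLHR, the receptor of prolactin-releasing peptide, had a log2 fold change of 0.76 ± 0.47.

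Genes known in arcuate KNDy neurons did not share a direction. Of 15 measured, 7 had a positive and 8 a negative log2 fold change, with a median of -0.05. EdgeR and limma-voom called 0, the DESeq2 Wald test 1, and 4 had an unadjusted p under 0.05 in edgeR. Leaving out anestrus pool 1 gave a median of -0.19, and leaving out anestrus pool 2 gave 0.15. ISL1, a transcription factor of arcuate neurons, had 70.0 and 62.2 CPM in the follicular pools against 130 and 106 CPM in the anestrus pools (log2 fold change -0.83 ± 0.18, adjusted p = 0.155, edgeR). GRIN1, the obligatory subunit of NMDA receptors, had 121 and 84.7 CPM in the follicular pools against 69.6 and 43.4 CPM in the anestrus pools (0.87 ± 0.26). SLC17A6, the vesicular glutamate transporter of KNDy and many other hypothalamic neurons, had 123 and 158 CPM in the follicular pools against 88.4 and 102 CPM in the anestrus pools (0.56 ± 0.18).

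KNDy neurons carry the receptors through which ovarian steroids act on GnRH secretion. ESR1, the oestrogen receptor alpha, had 56.6 and 56.0 CPM in the follicular pools against 54.6 and 65.7 CPM in the anestrus pools, with overlap. PGR, the progesterone receptor, had 5.19 and 3.54 CPM in the follicular pools against 1.33 and 2.77 CPM in the anestrus pools (log2 fold change 1.08 ± 0.46, adjusted p = 0.55, edgeR). The follicular pools of PGR were above the anestrus pools, and neither ESR1 nor PGR passed.

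Among regulators of KISS1 or of puberty, 13 could be tested, 4 had a positive log2 fold change, 2 had an unadjusted p under 0.05 in edgeR, and none passed by any of the 3 tools. Without anestrus pool 2 edgeR called some of them, as it called more genes over the whole table. EGR1, an immediate early transcription factor, had 166 and 131 CPM in the follicular pools against 72.4 and 113 CPM in the anestrus pools (0.68 ± 0.23). IRF2BPL, also called EAP1 and known for its part in female puberty in primates and rodents, had 76.1 and 77.0 CPM in the follicular pools against 110 and 94.5 CPM in the anestrus pools (-0.42 ± 0.17). EED, a Polycomb protein that holds Kiss1 down before puberty in rats, had -0.24 ± 0.18.

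The medians of the signalling genes below the receptors were positive, as were those of several marker lists. Those of neuron, microglia and other hypothalamic neuron markers were 0.31, 0.24 and 0.23. Of 21 genes of the Gq pathway used by the receptors of kisspeptin and neurokinin B, 17 had a positive log2 fold change with a median of 0.26, and 3 had an unadjusted p under 0.05, all higher in the follicular phase. Of 20 genes of the Gi pathway used by the kappa opioid receptor, 17 were positive with a median of 0.31, again with 3 at an unadjusted p under 0.05, all higher, where 4.26% of all genes were. The follicular pools lay above the anestrus pools without overlap for 12 of the 21 and 11 of the 20, beside 17.6% of all genes and 7 of the 14 neuron markers. EdgeR and limma-voom called 0 in each list, and DESeq2 called 0 in the Gq list and 1 in the Gi list. With either anestrus pool left out edgeR called some genes of both lists, as it called more genes over the whole table. PRKCE, a protein kinase C, had 135 and 126 CPM in the follicular pools against 67.5 and 92.6 CPM in the anestrus pools (0.70 ± 0.19), ARRB1, which desensitises receptors, 0.50 ± 0.17, and GNA11, a Gq-type alpha subunit, 0.67 ± 0.25. In the Gi list ADCY1, an adenylyl cyclase, had 24.9 and 26.8 CPM in the follicular pools against 13.4 and 13.3 CPM in the anestrus pools (0.96 ± 0.24). KCNJ9, a subunit of the potassium channels that Gi opens, had 79.3 and 76.5 CPM in the follicular pools against 44.3 and 51.9 CPM in the anestrus pools (0.69 ± 0.18), and GNAI1, a Gi alpha subunit, had 0.64 ± 0.18. Under neuron marker scaling the medians of the Gq and Gi lists were 0.00039 and 0.02, where that of all genes was -0.28.

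The precursors are cut by convertases before peptide is released. Of 10 processing genes measured, PCSK1 was called, lower in the follicular phase, at 251 and 213 CPM in the follicular pools against 539 and 605 CPM in the anestrus pools (log2 fold change -1.30 ± 0.17, adjusted p = 0.0154, edgeR). The call was lost without follicular pool 1, the 1 alternative of 15 in which the list had no call. PCSK2, the convertase that completes the cleavage of prodynorphin, had 56.0 and 49.1 CPM in the follicular pools against 35.4 and 38.4 CPM in the anestrus pools, and did not pass (0.51 ± 0.19 on the log2 scale, adjusted p = 0.457, edgeR). MME, the peptidase neprilysin, had 0.47 ± 0.28. A bulk pool does not show which cells the reads of PCSK1 came from. The pituitary and pars tuberalis markers had a median of -0.97, and their part in the value of PCSK1 was not tested.

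**Figure D4:**
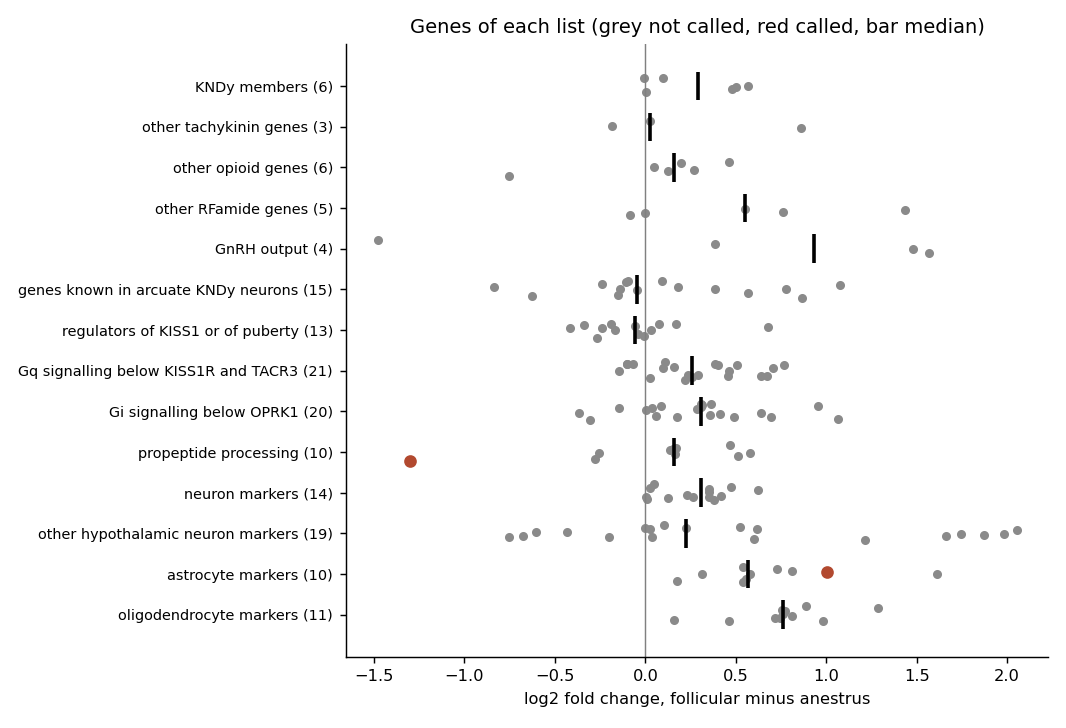
Log2 fold change (x axis, follicular minus anestrus) of each tested gene, by list, with the number tested in brackets, the median as a bar and genes called at an adjusted p under 0.05 in red. The median of the 6 genes (0.29) lies in a gap between TACR3 (0.10) and PDYN (0.48), so it describes no single gene. Medians were 0.26 for the Gq list, 0.31 for the Gi list, 0.31 for the neuron markers and -0.05 for the genes known in KNDy neurons.

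PDYN is also made outside the arcuate nucleus, among other places in vasopressin neurons of the supraoptic and paraventricular nuclei. AVP, the vasopressin precursor, chosen after its values were seen, had 34.0 and 16.5 CPM in the follicular pools against 12.3 and 1.72 CPM in the anestrus pools. Both follicular pools of AVP lay above both anestrus pools (log2 fold change 1.87 ± 0.95), as did those of PDYN. Between the anestrus pools AVP differed several-fold, and PDYN was nearly equal, at 222 and 226 CPM. Of 19 markers of other hypothalamic neurons, 14 had a positive log2 fold change with a median of 0.23, 6 had an unadjusted p under 0.05, and edgeR, DESeq2 and limma-voom called 0, 2 and 0. Leaving out follicular pool 2 gave a median of 0.54, leaving out anestrus pool 1 gave 0.81, and leaving out anestrus pool 2 gave -0.14. The 3 with the smallest p mark the paraventricular nucleus. SIM1, its transcription factor, had 4.44 and 11.5 CPM in the follicular pools against 2.59 and 1.44 CPM in the anestrus pools (1.98 ± 0.52), TRH, the thyrotropin-releasing hormone precursor, 1.66 ± 0.46, and CRH, the corticotropin-releasing hormone precursor, 1.75 ± 0.56. The summed level of the 19 markers was 737 and 602 CPM in the follicular pools against 937 and 425 CPM in the anestrus pools, and none was at 0 in all pools. Their part in the difference of PDYN was not tested.

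Genes with the most similar pattern were found by the distance of log2 CPM, centred on each gene's mean, over the 4 pools. Many genes lie close to each other over so few pools, and the distances only describe likeness. KISS1 was closest to B3GAT2, NTSR2 and RBFOX3, at distances of 0.0563 to 0.0956, where the median of 13508 genes was 1.01. RBFOX3, which encodes the neuronal nuclear antigen NeuN, is itself among the neuron markers and was the farthest of the 3. B3GAT2 and NTSR2, which were nearer, are in none of the lists of markers. TAC3 was closest to SZRD1, IKBKE and GPR153 (0.0465 to 0.0578, median 0.628), and PDYN to CAMTA2, CAMK1G and PSD3 (0.0302 to 0.0424, median 0.637).

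**Figure D5:**
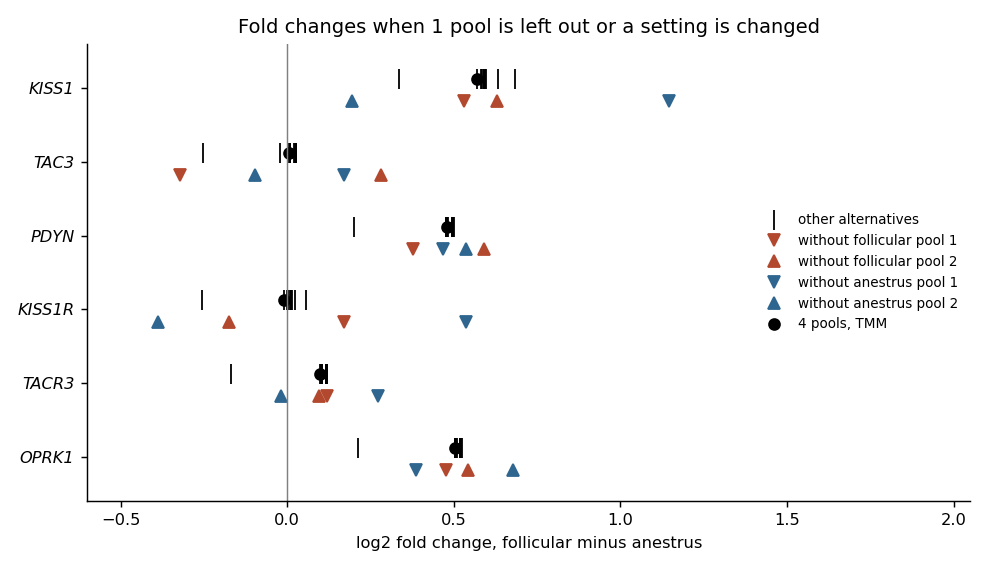
Log2 fold change (x axis, follicular minus anestrus) of each gene with all 4 pools under TMM (circle), with 1 pool left out (triangles) and under the other alternatives (ticks). KISS1 runs from 0.195 to 1.146 as an anestrus pool is left out, while PDYN and OPRK1 stay between 0.20 and 0.68.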

How the data were processed

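The authors deposited unnormalized whole-number counts of reads for each gene. TriReagent extraction and a Truseq stranded mRNA kit were used, per the labels' protocols. The authors counted with featureCounts 2.0.0 after TopHat2 2.1.1, per the submitters' processing notes, which also name Bowtie2 2.3.5.1, SAMtools 1.9, FastQC and bcl2fastq 2.20. A genome build, an annotation and a strand setting are, in the sources used here, not given, and no coordinates are printed. The anestrus pools carry opposite numbers in the titles and in the library names, and the numbers here are those of the library names, as in the table's columns.

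Genes were kept with filterByExpr (minimum count 10, minimum total 15), scaled by TMM and tested in edgeR 4.0.16 (R 4.3.3) with estimated dispersions and a robust glmQLFit, 2-sided, on 4 libraries. P-values were adjusted by Benjamini-Hochberg over 16756 genes, with a threshold of 0.05. Intervals of 95% used the standard error and the total degrees of freedom of the fit. CPM means are given ± SD over 2 pools. Neuron marker scaling set each library by its mean log2 count of those markers. Ratios used counts plus 0.5, and pattern distances a prior count of 2 with a mean of at least 1 CPM. Alternatives included DESeq2 1.42.0 and limma-voom (limma 3.58.1). The steps were tested on simulated data.

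The 6 genes and the 18 lists (209 entries, 204 found in the table) were chosen with earlier results of these data known. Named genes of a list are its called members and the 3 with the smallest p, except that for cell type markers other than those of other hypothalamic neurons only called members are named. GNRH1, ESR1, PGR and SLC17A6 were named whatever their result, as was 1 further gene whose values are not reported here, and 3 genes closest in pattern were named for each peptide gene. P-values rest on the spread between 2 pools a group. In edgeR the spread of each gene is moderated with that of the other genes, with a median of 10.75 total degrees of freedom.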

Additional observations from a re-analysis of the deposited data

How the results depend on the processing

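PDYN, OPRK1 and KISS1 kept a positive log2 fold change in all 15 alternatives. With 1 pool left out at a time, PDYN ran from 0.3761 to 0.591, OPRK1 from 0.3852 to 0.6772, KISS1 from 0.1949 to 1.146, TAC3 from -0.3219 to 0.2826, TACR3 from -0.0182 to 0.2726 and KISS1R from -0.387 to 0.5375, and 0 to 1 of the 6 genes passed. TAC3, TACR3 and KISS1R lay so near 0 that their sign has no weight. TAC3 was -0.2523 under neuron marker scaling and -0.02015 with the replicate block, and TACR3 was -0.1674 under neuron marker scaling. KISS1R was 0.01101 with DESeq2's size factors in edgeR, 0.01143 with upper-quartile factors, 0.01261 with library totals, 0.01347 with the CPM filter, 0.008687 in the DESeq2 Wald test, 0.05786 in limma-voom, 0.002761 in edgeR's newer fit and 0.02352 with the replicate block.

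Genes called over the whole table were 34, and 312 under neuron marker scaling, 300 without a count filter, 147 in the DESeq2 Wald test and 90 with the replicate block. With 1 pool left out they ran from 4 (without follicular pool 1) to 810 (without anestrus pool 1). The replicate numbers only number the pools of a group. The differences of pool 1 minus pool 2 correlated across genes at 0.2604 between groups, and the block called 0 of the 6 genes.

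With 1 pool left out, the difference in log2 ratio ran from 0.326 to 1.009 for KISS1/TAC3, from 0.3011 to 0.6929 for PDYN/TAC3, from 0.3756 to 0.8256 for KISS1/KISS1R, from -0.6793 to 0.3385 for PDYN/KISS1, from -0.4423 to 0.1879 for TAC3/TACR3 and from -0.1456 to 0.07838 for PDYN/OPRK1. A ratio pseudocount of 5 changed no direction. Depth limits KISS1R, read 18 to 33 times a pool, and GNRH1, at 0.669 to 1.80 CPM.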

Other observations

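Transcripts of pituitary gonadotrophs, the cells that GnRH acts on, were read in these hypothalamic pools and are given here with their values. LHB, the luteinising hormone beta subunit, had 118 and 27.9 CPM in the follicular pools against 31.9 and 20.8 CPM in the anestrus pools, with a log2 fold change of 1.48 ± 0.74. GNRHR, the GnRH receptor, had 22.7 and 5.63 CPM in the follicular pools against 1.54 and 7.93 CPM in the anestrus pools (1.57 ± 1.00). Both were highest in follicular pool 1. FSHB, the follicle-stimulating hormone beta subunit, had 17.3 and 52.2 CPM in the follicular pools against 75.4 and 117 CPM in the anestrus pools (-1.48 ± 0.58). With GNRH1, 0 of the 4 genes of this list passed in edgeR, DESeq2 or limma-voom, and 0 had an unadjusted p under 0.05 in edgeR. In edgeR's alternatives 1 of the 4 was called under neuron marker scaling and 1 with the replicate block. Some were also called without follicular pool 2 or without anestrus pool 2. In each of these fits more genes were called over the whole table than in the main fit. The median log2 fold change of the 4 was 0.93, and it was 0.17 without follicular pool 1 and 0.56 without anestrus pool 1.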
